A study of Saccharomyces cerevisiae with 30 samples.

Results

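The rows described here are the array features whose transcript level in the ancestral tetraploid of line 4 lay at least 2-fold from that of a diploid at 36°C. They were chosen on the 3 arrays that compared these cultures, as the rows with a mean log2 ratio of 1 or more in size over at least 2 values. This gave 208 of the 6145 rows that had such a mean, out of 6377 rows in the table. In 77 of them, or 1.25% of the rows with a mean, the ancestral tetraploid was higher than the diploid, and in 131 it was lower. A further row past the limit had a name beginning with Q and was left out by the rule. With it, 2.15% of the rows were lower. A log2 ratio of 1 is a 2-fold difference, and all values below are log2 ratios of the culture named first over the culture named second.

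All strains were budding yeast of the W303 background. The tetraploids were a/a/α/α cells made by mating a/a and α/α diploids, and the diploid was isogenic, with the SPO11 gene deleted in the haploid parents of all of them. Each evolved culture came from a single clone, the fittest of the colonies tested from a line kept for 1000 generations in rich medium at a lower temperature. The clone of line 2 carried a deletion of a chromosome segment and that of line 7 an extra chromosome. For the arrays, cells were taken in log phase in YPD at 36°C. The 30 arrays made 10 groups of 3, 8 of them each comparing the evolved clone of a line with its own ancestor, and the others comparing ancestral 4 and evolved 4 with the diploid. Within a group the arrays were technical triplicates, and an adjusted p below covers technical spread and not the spread between independent cultures.

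A tetraploid carries 4 copies of each chromosome, in a cell that is larger than a diploid and whose surface grows less than its volume. Newly made tetraploid yeast is known for poor growth under heat and for unstable chromosome segregation. Heat itself is known to raise transcripts of chaperones and to lower those of ribosomal proteins in yeast. Over long culture, lineages can acquire changes that lessen such defects. The direct comparison of evolved 4 with ancestral 4 asked which transcripts changed in that line, and the 2 diploid comparisons showed the distance of either tetraploid from it.

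The rows carry yeast systematic names, whose last letter, W or C, gives the strand of the listed gene. Of the names, 5840 matched a locus tag of the reference annotation. The values did not bear the names out. Transcripts of ribosomal proteins usually vary together in yeast, but over the 30 arrays the pairwise correlation among 117 complete rows with ribosomal protein names averaged −0.0018, against 0.0018 over 5701 complete rows. For 20 complete rows listed as heat shock and stress genes it was −0.0366. Rows are therefore called by their listed identifier only, as row YAL001C, and no gene, function or sequence is attached to them. As listed, 0 of the higher and 2 of the lower members were ribosomal protein rows, and 2 of the higher and 0 of the lower were heat shock or stress rows.

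The values that chose the members are given first, as a description. The median of the 77 higher rows was 1.13, and their means ran from 1.00 to 1.68. The median of the 131 lower rows was −1.18, with means from −3.72 to −1.01. Most members lay close to the limit, with 53 higher and 77 lower rows under 1.25 in size. At the other end, 10 higher and 22 lower rows reached 1.5, and 5 lower and 0 higher rows reached 2. On the single arrays the median of the higher rows was 1.08, 1.16 and 1.26, and that of the lower rows was −1.07, −1.30 and −1.14. The lower rows were therefore farthest from the diploid on replicate 2 and the higher rows on replicate 3. Values past the limit on each of the 3 arrays were held by 36 higher and 52 lower rows.

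At the limit, the choice between rows turned on differences smaller than the median SD of a member over its arrays, 0.189 for the higher and 0.247 for the lower rows. On the higher side the rows just inside were listed as YER047C, YBR178W and YPL033C, with means of 1.001, 1.008 and 1.012. The rows just outside, listed as YGL181W, YGR239C and YOR209C, had means of 0.998, 0.998 and 0.993. On the lower side, YGL041C, YLR408C and YKL034W lay inside at −1.006, −1.011 and −1.012, and YHR102W, YAL017W and YOR218C outside at −0.998, −0.997 and −0.995. Row YGL041C read −1.77, −0.26 and −0.99 on its 3 arrays.

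Because the mean of 3 arrays chose the rows, part of its size is error, and the array left out of a choice shows how much. When 2 arrays chose the higher rows, their median on the third array was 1.02, 1.08 and 1.19 for replicates 1, 2 and 3 held out. On the choosing arrays it had been 1.15, 1.17 and 1.19. For the lower rows the array held out gave −0.99, −1.22 and −1.05, against −1.19, −1.16 and −1.20. The held-out median thus kept between 82.8% and 105% of the size on the choosing arrays. Among the chosen lower rows, 136 of 140, 110 of 119 and 122 of 128 had the same sign on the array held out. Error common to the 3 arrays, such as a deviation of either culture, remains in these values.

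Among the 5 lowest rows with 3 values, the mean of 1 rested on a single array. Row YGR089W was the second lowest by its mean of −2.42, but its arrays read −0.91, −0.63 and −5.73. The lowest of all, listed as YMR068W, read −4.00, −3.54 and −3.62, so its 3 arrays were alike. The other 3 were YLR435W at −1.91, −2.46 and −2.12, YDR250C at −1.76, −2.53 and −1.84, and YNL125C at −1.65, −2.80 and −1.55. In these 3 rows replicate 2 was the lowest. Row YBR277C, chosen after its values were seen, had 2 values, −1.35 and −3.29, and its mean of −2.32 was the third lowest of all members. The 5 highest rows were listed as YHR137W (1.79, 1.61 and 1.65), YML021C (1.15, 1.76 and 2.14), YGL172W (1.73, 1.44 and 1.79), YAL034C-B (1.47, 1.44 and 1.85) and YPR140W (1.52, 1.75 and 1.39). Each of them was above 1 on all 3 arrays.

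The lower rows were mostly higher in the evolved clone than in its ancestor, and many were called. In the direct arrays of evolved 4 over ancestral 4, calls were made by limma, at an adjusted p (Benjamini-Hochberg) below 0.05 together with a mean of 1 or more in size. Of 127 lower rows tested, 65 were called higher and 3 lower, or 51.2% and 2.36%, where 3.88% and 4.51% of all 6208 rows tested were. The median of the lower rows was 1.03, with 0.0304 over all rows. On the single arrays it was 1.09, 1.17 and 0.81, so all 3 arrays stood well above 0. By the adjusted p alone, 95 were higher and 17 lower, or 74.8% and 13.4%, where 35.6% and 31.1% of all rows were. Of the 127, 103 had a mean above 0. Over all rows, 65.3% had a direct mean opposite in sign to their mean in ancestral 4 over the diploid. With quantile normalization over the 30 arrays the share of lower rows called higher was 18.9%, where 0.709% of all rows were.

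The higher rows moved less. Of 77 tested, 4 were called lower in the direct arrays, or 5.19%, a share close to the 4.51% of all rows, and 1 was called higher. By the adjusted p alone, 33 of 77 were lower, or 42.9%, where 31.1% of all rows were. The median of the higher rows was −0.26, and on the single arrays it was −0.30, −0.37 and −0.03. All 3 arrays were thus below 0, the third barely. Of the 77 rows, 53 had a direct mean below 0, or 68.8%. This was near the 65.3% of all rows whose direct mean was opposite in sign to that in ancestral 4 over the diploid. The share called lower depended on single arrays. It was 10.4% without direct replicate 3, where all rows gave 5.01%, and 10% and 10.4% when the rule was applied without ancestral 4 over diploid replicate 1 or 3.

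Both of these comparisons contain the ancestral culture of line 4, as the second culture in the direct arrays and the first in the arrays of the rule. A deviation of that culture alone would enter them with opposite signs, and the design cannot tell it apart from a change in the evolved clone. All arrays also had the same dye orientation, so a dye effect of a single row stays in every ratio with the same sign.

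**Figure D1:**
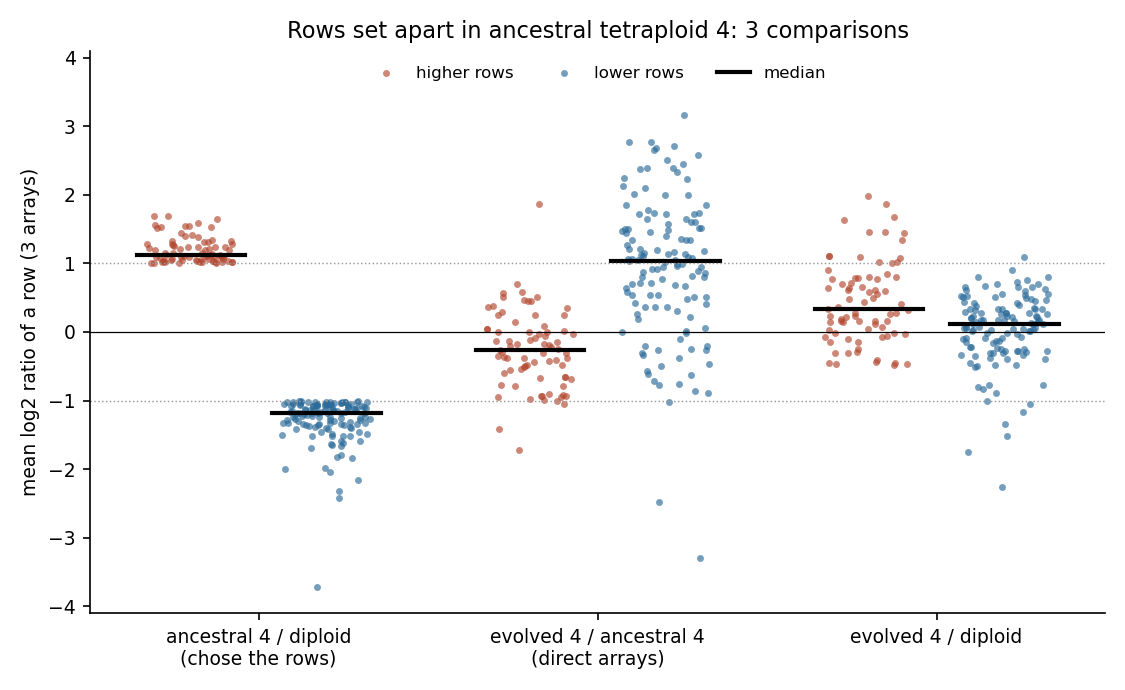
Mean log2 ratio of each of the 77 higher (red) and 131 lower (blue) rows in the 3 comparisons that involve line 4 and the diploid, with black lines at the medians and dotted lines at 1 and −1. The first comparison chose the rows; the lower rows had a median of 1.03 in the direct arrays and 0.12 against the diploid, and the higher rows −0.26 and 0.34.

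The 4 lower rows with the strongest direct ratios had means of −1.51 or below in ancestral 4 over the diploid. Not all rows far below the diploid rose, however. Of the 5 lowest named above, YMR068W and YGR089W had direct means of −3.30 and −0.20, while YLR435W, YDR250C and YNL125C had 2.77, 2.685 and 3.16. Row YNL125C read 3.19, 3.35 and 2.95 in the direct arrays, with a mean of 3.16 ± 0.20 (SD, n = 3). Row YLR435W read 2.86, 2.96 and 2.49, and that listed as YOR309C 2.89, 2.89 and 2.52. Row YKL077W read 2.82, 2.69 and 2.64. No array of these 4 rows came below 2.49, and limma's adjusted p was at most 1.01e-14. In ancestral 4 over the diploid their arrays ran from −2.80 to −1.10.

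Against the diploid, these rows in the evolved clone stood above 0 and not at it. They were picked by their direct ratios, which share the evolved culture with the arrays read here. Row YNL125C read 0.91, 1.02 and 0.76 in evolved 4 over the diploid, and YLR435W read 0.62, 0.68 and 0.38. Row YOR309C read 1.07, 1.21 and 0.99 and was the 1 lower member called higher than the diploid there, with a mean of 1.09 and limma's adjusted p of 2.58e-09.

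On the lower side, the median direct ratio was larger in rows farther from the diploid. The 76 tested rows between 1 and 1.25 in size had a direct median of 0.90, the 30 between 1.25 and 1.5 had 1.04, and the 21 at 1.5 or more had 2.09. Called higher in these steps were 33, 16 and 16 rows. On the higher side the 3 steps had direct medians of −0.29, −0.18 and −0.45, with 3, 1 and 0 rows called lower, so no such order was seen. Size here is the value of the rule, which shares the ancestral culture with the direct arrays.

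The 4 higher rows called lower in the direct arrays were listed as YMR240C, YOL094C, YBR297W and YCR018C-A. Row YMR240C read −1.80, −1.91 and −1.45, with a mean of −1.72 ± 0.24 (SD, n = 3), and in ancestral 4 over the diploid it had read 1.23, 1.70 and 1.29. Row YOL094C read −1.49, −1.46 and −1.28 and had read 1.00, 1.23 and 1.04. The others had means of −1.06 and −1.01, close to the limit of a call. Limma's adjusted p over the 4 rows was at most 1.27e-07. Against the diploid the evolved clone stood at 0.23 in YMR240C and at −0.48, −0.44 and −0.46 in the other 3.

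A few members were called in the direct arrays in the direction where they had started, which by itself does not show a move away from the diploid. Row YCR045C was the 1 higher row called higher again, at 1.92, 1.95 and 1.72 in the direct arrays and 1.83, 2.02 and 1.73 in evolved 4 over the diploid. Its arrays in ancestral 4 over the diploid read 1.34, 0.53 and 1.20. Of the 3 lower rows called lower again, that listed as YJR124C had about the same ratio in each comparison. Its means were −1.03 in ancestral 4 over the diploid, −1.02 in the direct arrays and −1.17 in evolved 4 over the diploid. These ratios do not close, since −1.03 followed by −1.02 would place the evolved clone well below −1.17.

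Row YMR068W had the lowest direct ratio of all members, with −2.52, −4.92 and −2.45 on its arrays and a mean of −3.30 ± 1.41 (SD, n = 3). Its evolved 4 over diploid arrays read −2.23, −1.97 and −2.56, so it was strongly below 0 in all 3 comparisons. These values do not close, since a ratio of −3.72 followed by −3.30 would place the evolved clone far below −2.25. The third row, listed as YDR008C, was singled out after its values were seen. It had 2 direct values, −2.28 and −2.67, and its rule values were −2.42 and −0.04.

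**Figure D2:**
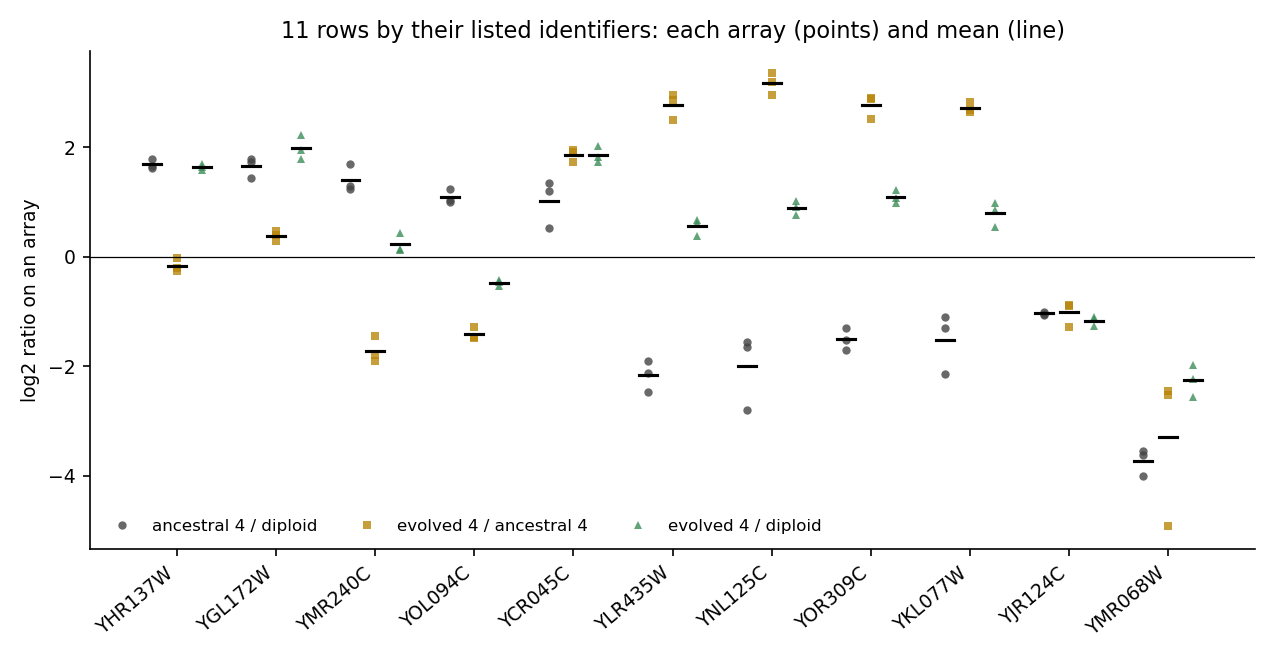
Log2 ratios of 11 members, given by their listed identifiers, on each of the 3 arrays of ancestral 4 over diploid (circles), evolved 4 over ancestral 4 (squares) and evolved 4 over diploid (triangles), with black lines at the means. The 4 lower rows from YLR435W to YKL077W lie below 0 against the diploid in the ancestor, at 2.49 or more in the direct arrays and above 0 in the evolved clone, while YMR068W lies below 0 throughout.

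In the evolved clone, most members were near the diploid. The median of the lower rows in evolved 4 over the diploid was 0.12, and on the single arrays it was 0.13, 0.17 and 0.00. The median of the higher rows was 0.34, with 0.47, 0.23 and 0.44 on the arrays, and that of all rows was 0.016. A mean within 0.5 of the diploid was found for 90 of 126 lower rows, or 71.4%, and for 43 of 77 higher rows, or 55.8%, while 84.2% of all rows lay that near. These arrays share the diploid with the arrays of the rule, so a deviation of the diploid culture would hold members on the side where they were chosen.

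Fewer rows remained past the limit on the side where they started. In evolved 4 over the diploid, 15 of the 77 higher rows were called higher, or 19.5%, where 0.771% of all rows were. Of 126 lower rows tested, 7 were called lower, or 5.56%, where 0.514% of all rows were. The 15 higher rows had a direct median of 0.35, and 12 of them were above 0 there, and 8 were farther from the diploid in the evolved clone than in the ancestor. All 7 lower rows had a direct mean below 0. These rows were picked by evolved 4 over the diploid, and the evolved culture comes first both there and in the direct arrays. A lean of their direct ratios to the same side therefore follows in part from the choice. Of the highest, the row listed as YGL172W stood at 1.79, 1.94 and 2.23 in evolved 4 over the diploid and that listed as YHR137W at 1.58, 1.63 and 1.69, with adjusted p in limma of at most 3.7e-15. Row YML021C, of the same size in the ancestor, stood at 0.59, −0.26 and 0.75, where limma's adjusted p was 0.297.

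The direct arrays can be set beside the difference of the diploid comparisons, as a description, since that difference uses the arrays of the rule. The median of evolved 4 over diploid minus ancestral 4 over diploid was −0.84 for the higher rows and 1.33 for the lower. The direct medians over the same rows were −0.26 and 1.04. The direct ratio was thus less negative by a median of 0.54 in the higher rows and less positive by 0.25 in the lower rows, where all rows gave −0.0367. Among the 65 lower rows called higher in the direct arrays, 43 lay within 0.5 of the diploid in the evolved clone and 22 did not. All 4 higher rows called lower lay within 0.5 of it. Over all rows called in the direct arrays against their sign in ancestral 4 over the diploid, 209 lay within 0.5 and 202 did not.

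The 7 other lines have ancestors of their own, and as far as the labels say their arrays share no culture with the rule. Few members were called in them. Of the 77 higher rows, 8 were called in at least 1 of these lines, or 10.4%, and of the 131 lower rows 15, or 11.5%, where 2.89% of all rows were. Called in 2 lines were 4 higher and 4 lower rows, with 1.07% of all rows called in 2 or more, and no member was called in more than 2.

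Among the 7 other lines, the lower rows had their medians farthest from 0 in lines 5, 7 and 8. In line 5 the median was 0.26, with 57 of 126 higher and 4 lower by the adjusted p alone, or 45.2% and 3.17%, where 19% and 21.6% of all rows were. In line 7 the median was 0.18, with 47 of 128 higher and 1 lower, against 14.6% and 15.1% of all rows. In line 8 it was −0.13, with 7 of 131 higher and 32 lower, or 5.34% and 24.4%, against 11.2% and 11.1% of all rows. In line 1 it was −0.09, with 12 of 122 higher and 35 lower, or 9.84% and 28.7%, against 20% and 20.6% of all rows. The direction in lines 5 and 7 is that of the direct arrays of line 4, and the direction in lines 1 and 8 is the opposite. These shifts are small beside the direct median of 1.03 in line 4. In the other lines the lower rows had medians of 0.05 (line 2), −0.02 (line 3) and 0.00 (line 6). In line 2, 43 of 131 were higher and 32 lower, or 32.8% and 24.4%, against 24% and 23.9% of all rows. Line 3 had 11.6% higher and 14.7% lower, against 17.6% and 18.8%, and line 6 had 19.8% and 21.4%, against 19.2% and 20.8%.

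The higher rows leaned upward in lines 2, 3 and 6. In lines 1, 5 and 7 more of them passed the adjusted p below 0 than above it. In the direct arrays of line 4 the share below 0 was 42.9%, against 31.1% of all rows. In line 2 their median was 0.24, and 30 of 76 were higher and 8 lower by the adjusted p. In line 3 it was 0.08, with 19 of 77 higher and 2 lower, and in line 6 it was 0.16, with 26 of 76 higher and 6 lower, though replicate 1 of line 6 had a median just below 0. Of all rows, 24% were higher and 23.9% lower by the adjusted p in line 2, 17.6% and 18.8% in line 3, and 19.2% and 20.8% in line 6. In line 1 the median was −0.10, with 3 of 77 higher and 14 lower, or 3.90% and 18.2%, against 20% and 20.6% of all rows. In line 7 it was −0.06, with 3 of 77 higher and 15 lower, or 3.90% and 19.5%, against the 14.6% and 15.1% of all rows given above, and its array medians were not of 1 sign. In line 5 the median was −0.03, with 9 of 77 higher and 17 lower, or 11.7% and 22.1%, against 19% and 21.6% of all rows. The share below 0 was thus under that of all rows in line 1 and close to it in line 5. Line 8 had a median of 0.02, with 16 of 76 higher and 10 lower, or 21.1% and 13.2%, against 11.2% and 11.1% of all rows. The array medians of lines 5 and 8 were not of 1 sign either.

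**Figure D3:**
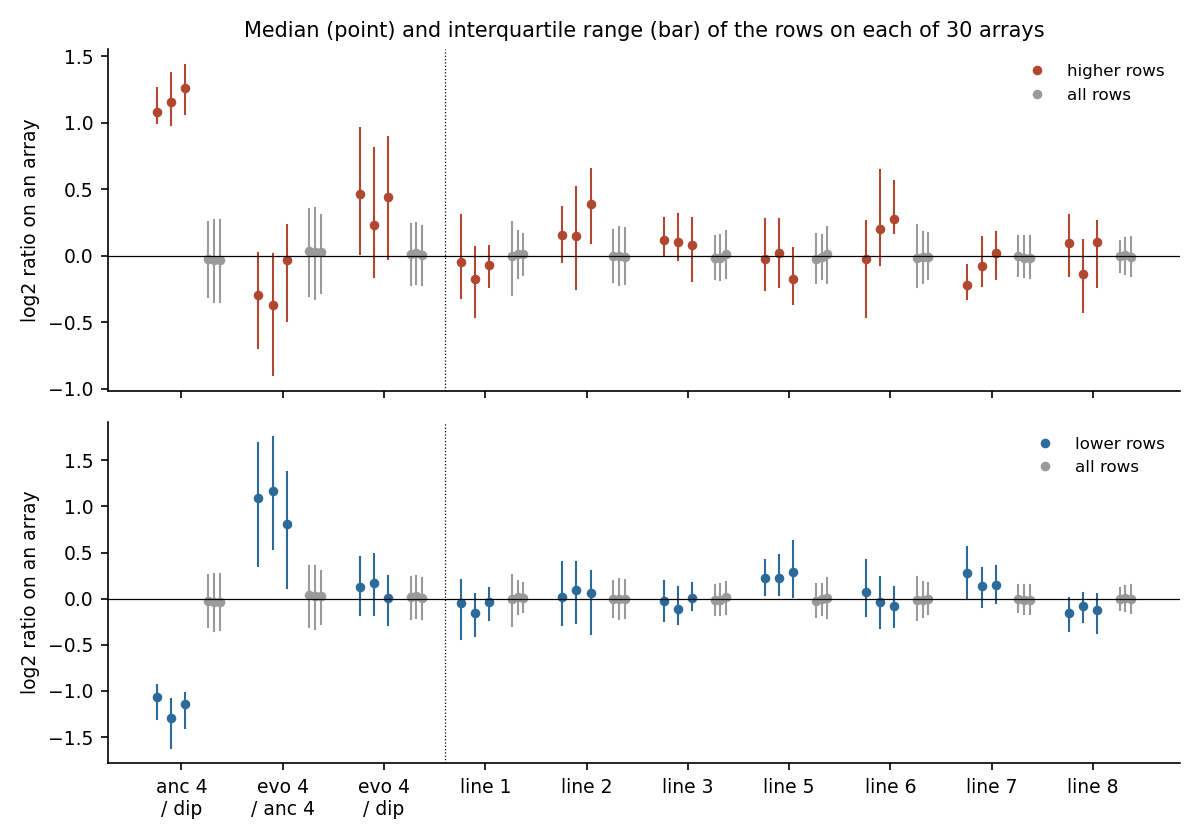
Median (points) and interquartile range (bars) of the log2 ratios of the higher rows (red, upper panel) and lower rows (blue, lower panel) on each of the 3 arrays of a group, beside the same for all rows (grey). Left of the dotted line are the comparisons with line 4 or the diploid; in the 7 other lines the medians of the row means of the members stay between −0.13 and 0.26.

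**Figure D4:**
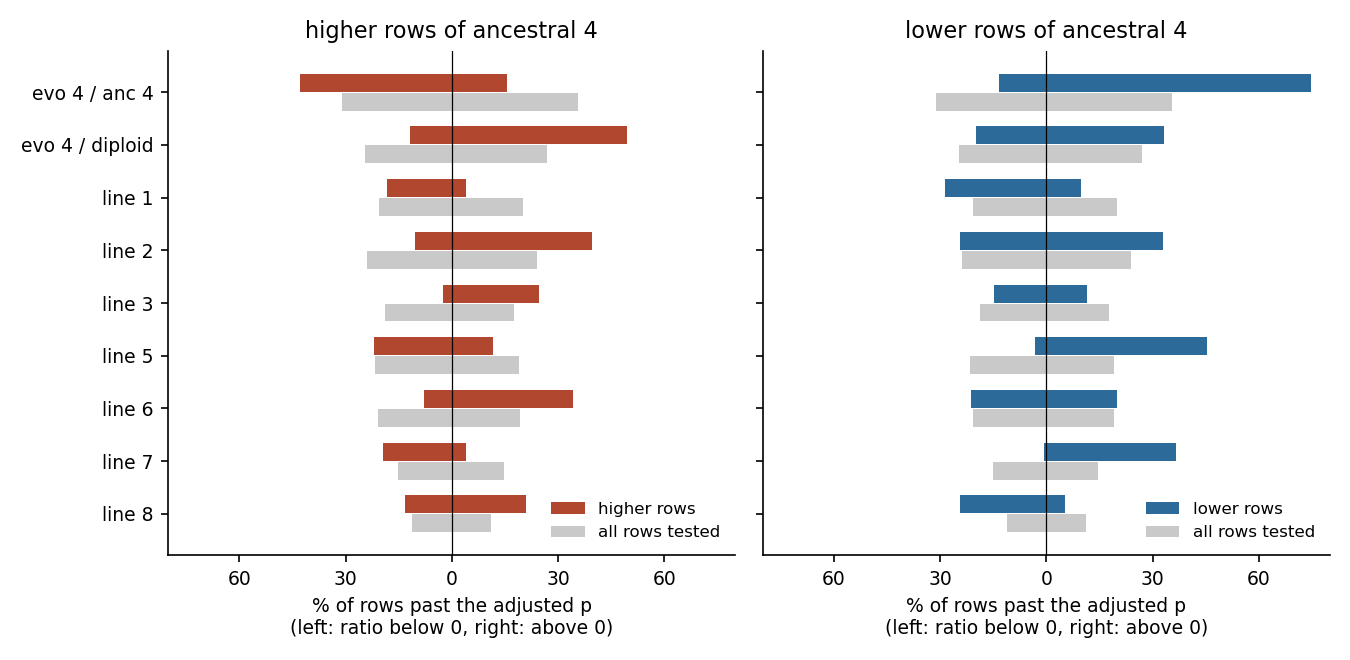
Percent of the higher (red) and lower (blue) rows past the adjusted p of limma in each comparison that did not choose them, beside all rows tested (grey), to the left for ratios below 0 and to the right for ratios above 0. The lower rows reach 74.8% above 0 in evolved 4 over ancestral 4, where all rows reach 35.6%.

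The members called in 2 other lines did not share a direction. Row YOR309C, raised in line 4, read 1.52, 1.55 and 1.21 in line 2 and 1.07, 1.18 and 1.18 in line 6. Row YGL032C had direct values of 1.95, 1.87 and 1.75 in line 4 and read 1.41, 1.72 and 1.40 in line 2 and 1.73, 1.45 and 1.32 in line 6. Row YJL176C had a direct mean of 1.51, with 1.03 in line 2 and 1.00 in line 5, at the limit of a call. In these 3 rows every array of the lines named lay above 0. Against them, the row listed as YDL170W had a direct mean of 1.78 in line 4 but read −1.12, −1.25 and −1.07 in line 2 and −0.84, −1.37 and −1.21 in line 6. Limma's adjusted p for these calls in lines 2, 5 and 6 was at most 2.24e-09.

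Among the higher rows, those listed as YDR360W and YDL085W were lower in line 1 and higher in line 3. Row YDR360W read −1.19, −1.05 and −1.14 in line 1 and 1.23, 1.18 and 1.35 in line 3, and YDL085W had means of −1.27 and 1.17. In line 4 both were near 0, at 0.04 and −0.02. Row YHR050W had means of 1.20 in line 2 and 1.24 in line 6, and −0.06 in line 4. Row YOR205C read 0.50, 1.34 and 1.57 in line 6 and 1.44, 0.82 and 1.24 in line 8, so its arrays within a line were far apart. Limma's adjusted p over these calls was at most 8.08e-05.

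The members varied together on arrays that the rule did not use. Over the 21 arrays of the 7 other lines, the mean pairwise correlation was 0.146 among 73 complete higher rows and 0.168 among 110 complete lower rows, against 0.0018 over 5860 complete rows. Over the 7 line means it was 0.111, 0.133 and 0.0003. Rows share the arrays and their hybridisation, so these correlations are descriptive. The most alike pair of lower rows, listed as YHR205W and YKL024C, correlated at 0.968 and differed by a median of 0.0643 per array, though they stand at lines 2853 and 3513 of the table. The rows listed as YGL172W and YPR076W, on the higher side, correlated at 0.968. In line 4 they parted, with direct means of 0.38 and −0.50.

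Some of the higher rows stood in a block of the table. Of the 77 higher rows, 14 were listed on the left arm of chromosome I, or 19.2% of its 73 rows, all with names ending in C. No other listed arm held more than 6 higher rows. The block ran over 52 rows, from that listed as YAL001C to that listed as YAL047C. In ancestral 4 over the diploid, 28 of its 30 rows ending in C had a mean. Their median was 1.00, with array medians of 0.88, 0.77 and 1.12. These arrays chose 14 of the C rows, the rows at both ends among them, so a high median follows in part from the rule. The 22 rows ending in W that lay between the C rows had a median of −0.35, with array medians of −0.27, −0.42 and −0.30, and included 2 of the lower members.

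In lines 2, 6 and 8 the C rows had array medians of 1 sign. In line 8 all 30 C rows were below 0, with a median of −0.57, and 21 of the 22 W rows were above 0, with a median of 0.19. In line 6, 28 of the C rows were above 0, with a median of 0.50, and in line 2, 26 were, with a median of 0.43. The W rows there also had array medians above 0, with 19 of 22 rows above 0 in line 6 (median 0.17) and 14 in line 2 (median 0.06). In the other lines the array medians of the C rows disagreed in sign within a group. They were 0.26, −0.64 and −0.0594 in line 1, 0.12, −0.15 and −0.29 in line 3, 0.64, 0.31 and −0.65 in line 5, and −0.25, 0.16 and 0.24 in line 7. The same held for evolved 4 over ancestral 4, at −0.0987, −0.26 and 0.21, and for evolved 4 over the diploid, at 0.48, −0.0964 and 0.38. The 14 members of the block had a mean pairwise correlation of 0.804 over the arrays of the other lines. The 63 higher rows elsewhere had 0.179, against 0.146 for all higher rows, so the likeness among the higher rows did not depend on the block.

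Rows that follow each other in the table were also alike over its whole length when their names ended in the same letter. The correlation over such neighbours was 0.130 to 0.328 in the 10 groups, and that over neighbours with different letters was −0.0158 to 0.0174. In ancestral 4 over the diploid it was 0.130, from 2784 pairs. Of the higher members 63.6% ended in C, or 55.6% outside the left arm of chromosome I, against 51.1% of the lower members and 49.8% of all rows with a mean. The part of the order of the table in the members' values was not tested.

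**Figure D5:**
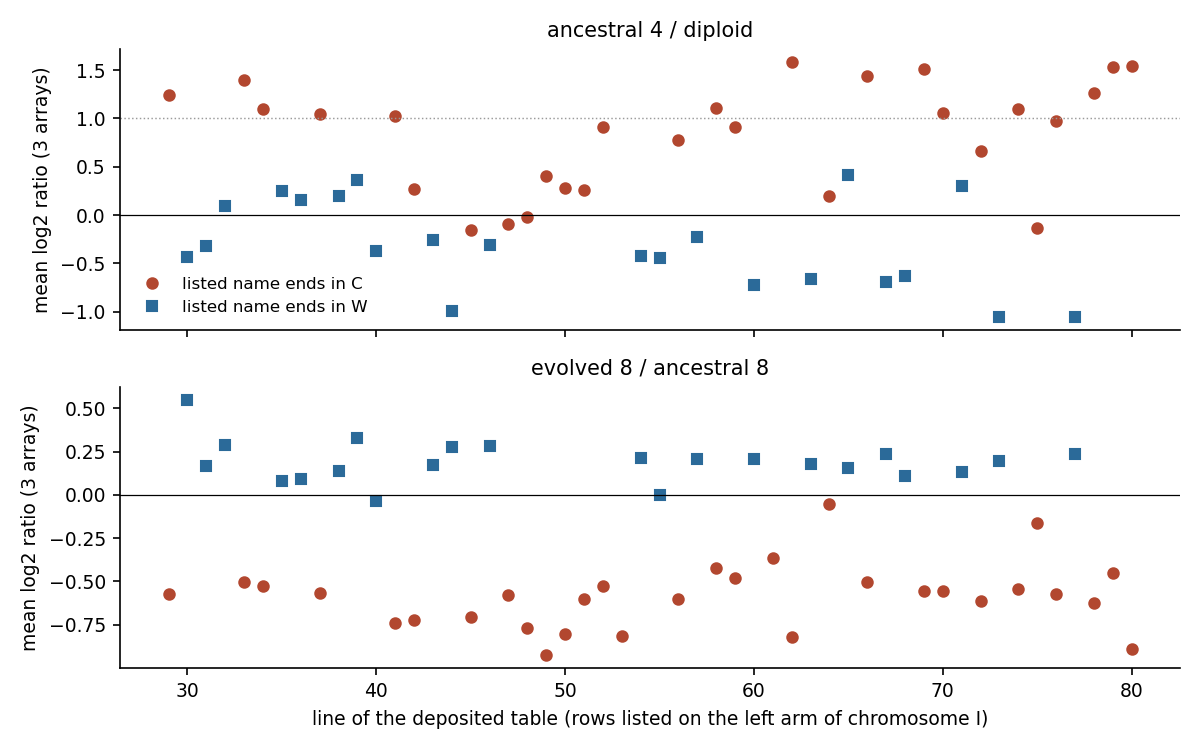
Mean log2 ratio over 3 arrays of the 52 rows of the block on the listed left arm of chromosome I, by line of the deposited table, in ancestral 4 over diploid (upper panel, with a dotted line at the limit of 1) and evolved 8 over ancestral 8 (lower panel). Rows with names ending in C (red circles) have medians of 1.00 and −0.57, and rows ending in W (blue squares) −0.35 and 0.19.

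The block touched the higher rows of line 4 only in part. Its 14 members had a median of −0.38 in the direct arrays and 0.22 in evolved 4 over the diploid. The other 63 higher rows had −0.22 and 0.49. In line 8 the block members stood at −0.56, with 14 of 14 below 0, and the other higher rows at 0.05. In line 6 they stood at 0.48, with 14 of 14 above 0, against 0.08.

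In the arrays of the rule, empty cells were fewer among the higher rows and about as frequent among the lower rows as over the table. They made up 0.866% of the cells of the higher rows and 3.56% of those of the lower rows, against 3.39% over all rows. In the direct arrays 4 lower rows had fewer than 2 values and were not tested, and against the diploid 5 were not. Each of the 77 higher rows was tested in both.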

How the data were processed

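Total RNA of 2 cultures was hybridised to each spotted oligonucleotide array, the culture named first in Alexa Fluor 647 and the other in Alexa Fluor 555, with 0 arrays swapped. The deposited values are log2 ratios on which the authors ran LOWESS in GeneSpring GX, without weakly hybridised spots. Labels and methods give the direction. Arrays held 6092 to 6360 values, with medians from −0.0324 to 0.0374, and their number limits the precision. Of the cells, 3053 were empty, and 84 at a floor of −6.64 were set to missing. Intensities were not used here.

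All 30 arrays were fitted as 10 group means by lmFit and eBayes of limma 3.58.1 in R 4.3.3, adjusted by Benjamini-Hochberg over all rows, and tested on simulated data. A row needed values on 2 of 3 arrays. Other values were computed in Python 3.11.15. Named rows were the 5 highest and 5 lowest with 3 values, the 3 nearest the limit inside and outside, the 4 strongest opposite calls in the direct arrays on each side, the 3 strongest calls in the starting direction there, and up to 4 on each side called in the most other lines. To be named, a call in the direct arrays needed the same sign on all 3. The members, lists and alternatives were chosen with earlier results of these data known.

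The methods name no test for their thresholds, so the t-test of each row is only an alternative. Alternatives were other scalings, filters, tests, rule limits, the replicate block and each replicate left out. Columns of other samples numbered 0.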

Additional observations from a re-analysis of the deposited data

Results flagged for a closer look

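The higher rows differed in direction between the 7 other lines. Their array medians were above 0 on all 3 arrays in line 2 (median of the row means 0.243) and in line 3 (0.0838), and below 0 on all 3 in line 1 (−0.0960). The lower rows were above 0 on all 3 arrays in line 2 (0.05), line 5 (0.262) and line 7 (0.175), and below 0 in line 1 (−0.0865) and line 8 (−0.131). The rows of the block ending in C were above 0 on all 3 arrays in line 2 (0.432) and line 6 (0.497) and below 0 in line 8 (−0.574). None of these differences between lines was tested. Over the 7 other lines, 4 sets of medians were examined for a line far from the rest, those of the higher rows, the lower rows and the C and W rows of the block, and 0 passed Dixon's critical value.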

How the results depend on the processing

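Of 603 values under alternatives for 53 results, 522 counted as the same and 71 as moved. A share counted as the same within 1.5-fold of its main value. A median did when it changed by less than the SD of the array medians, and a named row when it still passed as a call. Among the 603 were 189 values of named rows, of which 10 no longer passed as a call and 0 changed sign. Changes of sign were not counted for the shares and medians. Percents below are shares of the members tested. The share of lower rows called higher in the direct arrays (51.2%) became 18.9% with quantile normalization, when all rows gave 0.709%, and 26% by a t-test of each row at the study's 2-fold and unadjusted p under 0.005, when all rows gave 2.3%. Its median (1.03) became 0.62 with quantile normalization, 0.76 at a rule limit of 0.8, 2.09 at 1.5, and 1.54 for members past 1 on all 3 arrays. The share of higher rows called lower there (5.19%) became 7.79% with arrays centred on their medians, 1.3% with quantile normalization, 42.9% with no fold minimum (31.1% of all rows), 11.8% at 0.8 and 0% at 1.5, where the median was −0.45. With each replicate left out of the rule or of the group read, this share ranged from 3.61% to 10.4% and the direct median of the lower rows from 0.71 to 1.17. Against the diploid, the share of higher rows called higher (19.5%) became 49.4% with no fold minimum (26.9% of all rows), 11.7% and 10.4% by the t-test unadjusted and adjusted (0.45% and 0.418%), 12.8% at 0.8 and 30% at 1.5. The share of lower rows called lower (5.56%) became 19.8% with no fold minimum, fewer than the 24.6% of all rows, 3.23% at 0.8 and 9.62% past 1 on all 3 arrays. Medians against the diploid became 0.16 at 0.8, 0.69 at 1.5 and 0.49 without the listed left arm of chromosome I for the higher rows, and 0.0305 at 0.8 and 0.43 at 1.5 for the lower. With a replicate left out they ranged from 0.18 to 0.45 for the higher rows and from 0.0161 to 0.17 for the lower, lowest without ancestral 4 over diploid replicates 3 and 2. In at least 1 of the 7 other lines, 10.4% of the higher and 11.5% of the lower rows were called, and 2.89% of all rows. These became 19.5% and 17.6% with quantile normalization (all rows 4.7%), 80.5% and 86.3% with no fold minimum (all rows 87.5%, so the members did not exceed them), 6.49% and 5.34% by the t-test unadjusted (1.79%), 3.90% and 6.87% adjusted (1.3%), and 5.56% and 17.3% past 1 on all 3 arrays. At 0.8 the lower rows gave 6.27%, and at 1.5 the higher rows gave 0%, while a replicate left out gave 5.97% to 15.6% of the higher rows, lowest without ancestral 4 over diploid replicate 3. The 2 settings on the listed arm and on all 3 arrays were chosen after seeing the data. Of 210 values for single lines, 27 moved. A changed rule limit changes which rows are members; the cause of the other differences was not tested.

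The replicate numbers did not pair the arrays. Deviations of same-numbered arrays correlated at a median of 0.0003 over 135 pairs (from −0.518 to 0.577), against 0.0006 over 270 pairs with different numbers. With the replicate number as a block the direct shares stayed at 51.2% and 5.19%, and no other share or median counted as moved.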
